A study of Mus musculus with 13 samples.

Results

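Autophagy and lysosome genes were compared among 3 muscles of mdm mice. The 10 genes were chosen by name, for their place in the pathway, and cover its start (Ulk1, Becn1), the autophagosome membrane (Map1lc3b, Gabarapl1), cargo receptors (Sqstm1, Nbr1), a mitochondrial receptor (Bnip3), the lysosome (Ctsl, Lamp2) and its transcription factor (Tfeb). All 10 were among the 17924 genes of the count tables and among the 17069 genes that passed the filter on low counts. RNA of whole muscles was sequenced in 13 libraries: 5 of extensor digitorum longus (EDL), 5 of psoas and 3 of soleus. EDL and psoas are fast muscles and soleus is a slow one. All mice were of the mdm genotype, on the strain B6C3Fe a/a-Ttn mdm/J, and carried a deletion in the N2A-PEVK region of titin in all their cells, so each muscle compared here holds the mutation. The mice were 29 to 42 days old, namely 38 or 42 days for EDL, 29, 38 or 42 days for psoas and 33, 36 or 38 days for soleus, and the sex is given for 6 of 13 libraries. No treatment is reported for these mice, which by the paper were killed for other studies. Libraries of wild-type mice were not used, so the values below show how mdm muscles differ from each other and not what the deletion changed.

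Macroautophagy encloses part of the cytoplasm in a growing membrane, closes it into an autophagosome and delivers it to the lysosome, where hydrolases degrade it. The ULK1 kinase complex starts the process, the class III PI3-kinase complex with Beclin 1 marks the membrane with phosphatidylinositol 3-phosphate, and Atg8 proteins of the LC3 and GABARAP families are bound to the membrane lipid, where cargo receptors such as p62 and NBR1 dock on them. Skeletal muscle relies on this route to remove damaged mitochondria and protein aggregates, and titin itself anchors p62 and NBR1 through a signalling complex at its kinase domain. TFEB and its relatives switch on lysosome and autophagy genes when the mTORC1 kinase on the lysosome surface is inactive. RNA levels do not show autophagic flux, since Atg8 and receptor proteins are themselves degraded in the lysosome.

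Library totals ran from 9114176 to 48835209 counts, and the 10 genes had between 76 and 21068 counts in a library. At 100 counts the counting error alone is about 10%, and Tfeb (76 to 330 counts) and Ulk1 (93 to 927 counts) were the only genes of the 10 with fewer than 100 counts in any library. Values per library below are normalized counts, which are counts divided by the authors' size factor of the library. Library composition differed, since scaling to library totals alone would have moved the median of all genes by 0.54 (log2) between psoas and EDL, 0.37 between soleus and EDL and -0.16 between soleus and psoas, against 0.04, 0.01 and -0.02 with the composition factors used for the tests (trimmed mean of M-values, TMM). Every difference given is relative to the bulk of genes in this sense. In whole muscle, fewer cells of a type and less RNA per cell cannot be told apart. The paper also gives an RNA integrity number, a score of RNA quality, for each library. In every mdm psoas library it was at or below the lowest value of mdm EDL. The part of RNA quality in the differences was not tested. The paper names fewer mice than libraries, so some libraries share an animal, but the labels do not say which. The main fit took the 13 libraries as independent, and p-values measure only the spread between these libraries.

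The 10 genes covered a wide range of RNA levels, measured here as TPM, the count per exon length scaled to the same sum in every library. The median over 13 libraries was 224 TPM for Sqstm1, 194 for Bnip3, 70.5 for Ctsl, 60.2 for Gabarapl1, 41.6 for Lamp2, 32.8 for Nbr1, 21.1 for Map1lc3b, 8.83 for Becn1, 3.39 for Ulk1 and 2.12 for Tfeb. In this order 3 pairs of neighbours were not separated, as Sqstm1 lay above Bnip3 in 7 of 13 libraries, Ctsl above Gabarapl1 in 10 and Lamp2 above Nbr1 in 11. Each other neighbouring pair kept its order in at least 12 of 13 libraries. These lengths are the union of all annotated exons, 7517 bases for Map1lc3b and 7065 for Becn1, and include rarely used stretches, so the TPM of such genes are low estimates. TPM rank genes within libraries and were not used to compare muscles.

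**Figure D1:**
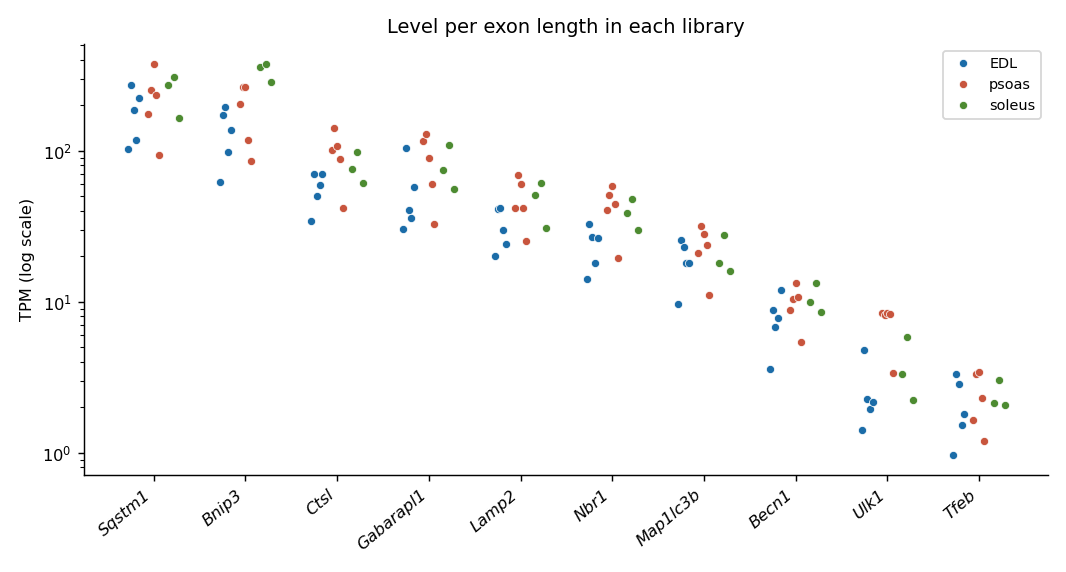
RNA level per exon length of the 10 genes in each of 13 libraries, in TPM on a log axis, with 1 point per library in EDL (blue), psoas (red) and soleus (green). Medians fall from 224 TPM for Sqstm1 to 2.12 TPM for Tfeb, and the ranges of neighbouring genes overlap.

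None of the 10 genes passed the limits of the study (adjusted p under 0.01 and more than 2-fold) in any comparison. Between psoas and EDL, where 841 of 17069 genes (4.93%) were called by edgeR's quasi-likelihood test, the count was 0 of 10. At an adjusted p under 0.05 with any fold change, 1 of 10 passed, which was Ulk1, against 18.1% of all genes. At an unadjusted p under 0.05 there were 4 of 10 (Ulk1 higher in psoas, and Map1lc3b, Tfeb and Becn1 lower), against 33.3% of all genes. The libraries of psoas and EDL overlapped for all 10 genes, while 13% of all genes had no overlap. The share of the 10 genes past each limit was thus near or below that of all genes.

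Soleus against EDL likewise gave 0 of 10 called, with 0.978% of all genes called, 0 of 10 at an adjusted p under 0.05 against 3.43%, and 1 of 10 at an unadjusted p under 0.05 against 15.1%. That 1 gene was Bnip3, also the only one of the 10 whose libraries did not overlap, against 11% of all genes. Soleus against psoas gave 0 of 10 called with 0.0762% of all genes called, and 0 of 10 at an adjusted p under 0.05 with 0.633%. At an unadjusted p under 0.05 there were 2 of 10 (Bnip3 higher and Ulk1 lower in soleus), against 12.7% of all genes. Libraries did not overlap for 3 of 10 genes (Bnip3 and Becn1 higher, Ulk1 lower in soleus), against 10.2% of all genes. By DESeq2's Wald test at the study's limits the count was also 0 of 10 in all 3 comparisons. The comparisons share libraries, so a muscle that stands apart enters 2 of them.

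The median log2 fold change of the 10 genes was -0.22 for psoas against EDL, where all genes tested had a median of 0.02. Of the 10, 8 lay below 0, as did 8319 of 17069 genes tested. For soleus against EDL the median of the 10 was -0.02 beside -0.03 for all genes, with 5 above and 5 below 0. For soleus against psoas it was 0.17 beside -0.03, with 8 above 0, as were 8095 of 17069 genes tested. The absolute log2 fold change had a median of 0.07 over the 10 genes in soleus against EDL, while it was 0.33 over all genes.

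**Figure D2:**
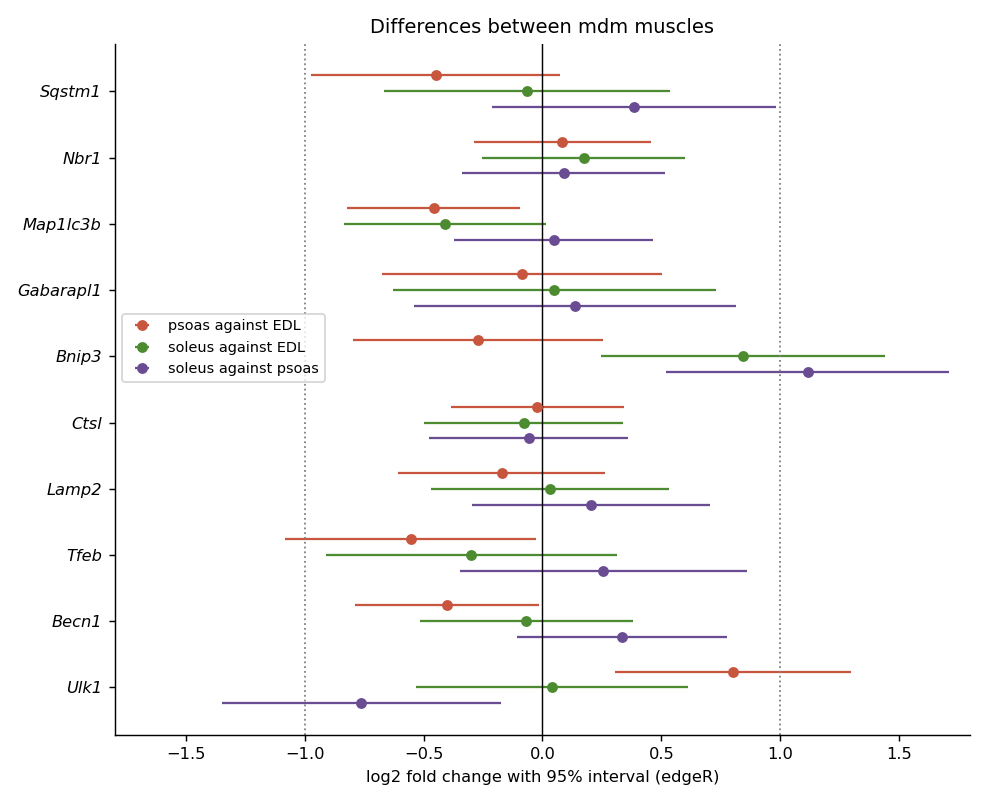
Log2 fold changes of the 10 genes from the edgeR fit, with 95% intervals, for psoas against EDL (red), soleus against EDL (green) and soleus against psoas (purple), dotted lines marking 2-fold. Ulk1 lies at 0.80 for psoas against EDL and Bnip3 at 0.84 and 1.12 for soleus, and the intervals of Ctsl, Nbr1, Gabarapl1 and Lamp2 include 0 in each comparison.

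**Figure D3:**
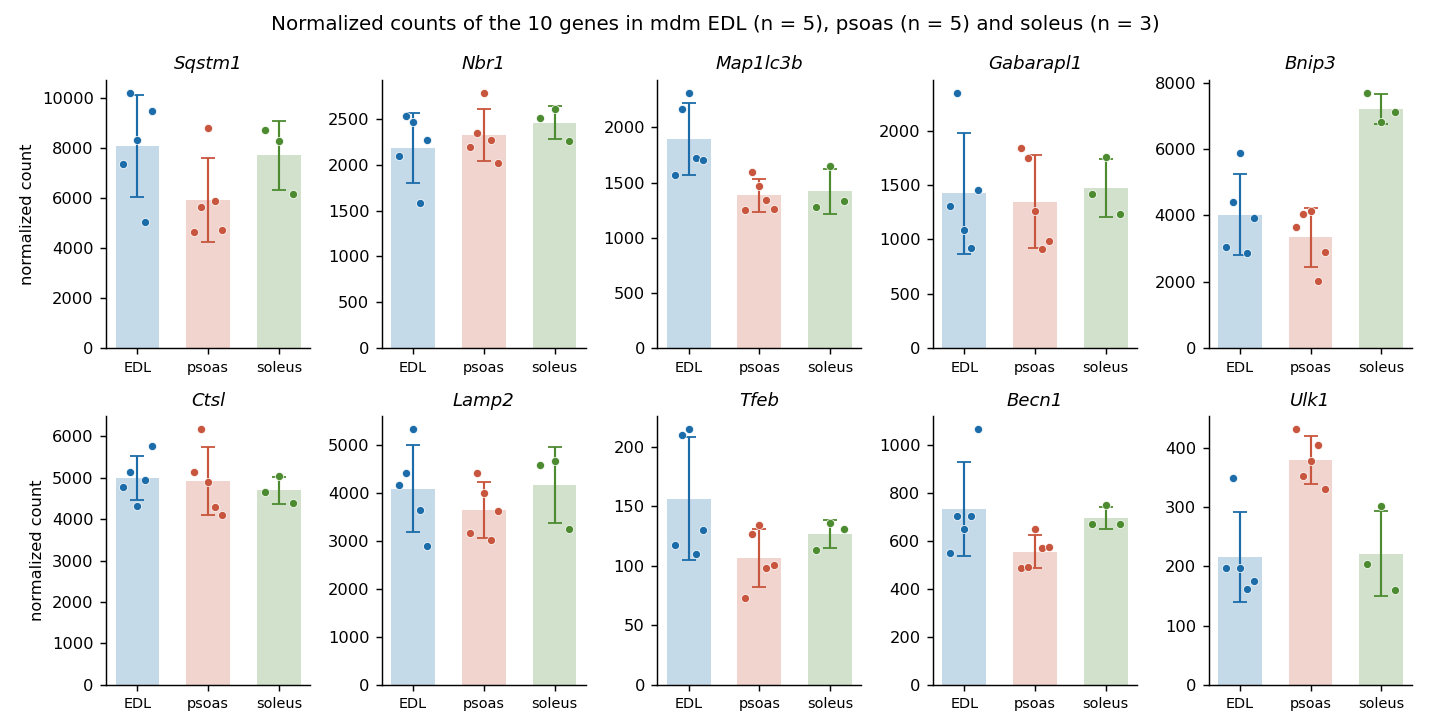
Normalized counts of the 10 genes, 1 point per library in replicate order, with bars for the mean and error bars for the SD in mdm EDL (n = 5), psoas (n = 5) and soleus (n = 3). The 3 soleus libraries of Bnip3 (6815 to 7709) lie above all others, and Ulk1 of EDL replicate 2 (349.6) lies within the psoas range.

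Ulk1 encodes the kinase that starts autophagosome formation and is itself held inactive by mTORC1. Its gene spans chr5:110784488-110810097 on the reverse strand of GRCm38. In EDL replicates 1 to 5 the normalized counts of Ulk1 were 198, 349.6, 197, 162 and 176. The psoas libraries held 432, 354, 377, 405 and 331, and the soleus libraries 204, 301 and 159.9. Psoas was high in every library, and the only EDL library that reached its range was replicate 2. The level in psoas was 1.74 times that in EDL (log2 fold change 0.80 ± 0.23 SE, 95% interval 0.303 to 1.298, edgeR adjusted p = 0.0289), past 0.05 but not past the study's limits. Without EDL replicate 2 the log2 fold change was 1.06 and Ulk1 passed the study's limits (adjusted p = 0.00534). Without any 1 of EDL replicates 1, 3, 4 and 5 or psoas replicates 1, 2 and 4 it no longer passed 0.05, with adjusted p-values up to 0.0718. Soleus lay below psoas without overlap, by -0.76 ± 0.27 (interval -1.35 to -0.18), with an adjusted p of 0.265 by edgeR. Soleus and EDL overlapped, with a difference of 0.04 ± 0.27 and an interval of -0.53 to 0.61.

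The labels give each library a code, T1 to T6, whose meaning they do not explain. Within code T4 the psoas library differed from the EDL library in Ulk1 by -0.02 (log2 CPM, 1 against 1 library), within T5 by 0.92 (1 against 1) and within T6 by 1.12 (2 against 2). The difference of Ulk1 was thus seen in T5 and T6 and not in T4. In the edgeR fit with a block for the code it was 0.79, with an adjusted p of 0.0239. With only the libraries of T4 and T6 and a block for the code, an alternative chosen after seeing the data, it was 0.75 and did not pass 0.05 (adjusted p = 0.0871). Its paralogue Ulk2, which can take the place of Ulk1 in the initiation complex, had higher counts than Ulk1 in every library (651 to 1971). Ulk2 differed between psoas and EDL by -0.59 ± 0.26 (edgeR adjusted p = 0.121). The ratio of Ulk1 to Ulk2 normalized counts was 0.156 ± 0.0515 (SD) in the 5 EDL libraries, 0.413 ± 0.143 in the 5 psoas libraries and 0.210 ± 0.0130 in the 3 soleus libraries, a ratio chosen after the values had been seen and not tested.

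The bases upstream of Ulk1 and Bnip3, which differed most between muscles among the 10 genes, are printed here from RefSeq's promoter table (GRCm38.p6), from 250 bases before the start site up to the first base that the GENCODE gene covers. Capitals mark CACGTG, the palindromic E-box, which is the core of sites bound by TFEB and many other factors.
Ulk1, chr5:110810098-110810331, reverse strand: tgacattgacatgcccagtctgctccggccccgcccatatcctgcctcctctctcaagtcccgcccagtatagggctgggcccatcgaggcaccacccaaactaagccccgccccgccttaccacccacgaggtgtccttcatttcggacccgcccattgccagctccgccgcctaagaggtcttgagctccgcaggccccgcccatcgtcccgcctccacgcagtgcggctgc
Bnip3, chr7:138909520-138909756, reverse strand: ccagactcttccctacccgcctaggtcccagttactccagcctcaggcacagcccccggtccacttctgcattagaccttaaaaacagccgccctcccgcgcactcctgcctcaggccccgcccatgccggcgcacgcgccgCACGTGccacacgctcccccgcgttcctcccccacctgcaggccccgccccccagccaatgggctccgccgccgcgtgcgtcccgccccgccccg

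RefSeq held windows for 9 of the 10 genes, 12 windows in all. Searched on both strands over the 250 bases before the start, CACGTG was found for 2 genes, Bnip3 at -108 to -103 and Ctsl at -236 to -231, and in 6.02% of 32851 windows of that length. The Ctsl window (chr13:64370521-64370770, reverse strand) lies inside the GENCODE gene (64359337 to 64370890), before an internal start site. The core ACGTGC, which hypoxia-inducible factors bind, was found in windows of the same 2 genes, overlapping the E-box in both, and in 4.92% of all windows. The E-box with its flanking bases as in the CLEAR element of TFEB targets was in no window of the 10 genes (0.785% of all), nor was TGTTTAC, the core of FoxO sites (3.17% of all). G and C made up 72.4% of the Bnip3 window and 67.2% of the Ulk1 window, beside a median of 52.4% over all windows.

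Becn1 encodes Beclin 1, the regulatory subunit of the class III PI3-kinase complex. Its normalized counts were 548, 701, 647, 701 and 1064 in EDL, 487, 491, 649, 571 and 575 in psoas, and 668, 748 and 671 in soleus. EDL replicate 5 was the highest library of all, and the 2 lowest values were in psoas. Psoas differed from EDL by -0.40 ± 0.18 (interval -0.79 to -0.01, edgeR adjusted p = 0.137), and by -0.23 with an adjusted p of 0.361 when EDL replicate 5 was left out. Soleus did not overlap psoas, with a difference of 0.33 ± 0.21 whose edgeR adjusted p was 0.521, and lay within the EDL range. Of the exon bases of Becn1, 43.9% overlap Cntd1 on the opposite strand, which had 0 to 29 counts. The strand setting of the counting is not given in the sources used here, so reads of the 2 genes cannot be told apart. The catalytic partner Pik3c3 and the targeting subunit Atg14 differed between psoas and EDL by -0.03 ± 0.17 and -0.05 ± 0.26.

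Map1lc3b encodes LC3B, the Atg8 protein most used to mark autophagosomes. EDL held 1564, 2163, 2315, 1726 and 1704 normalized counts of Map1lc3b, psoas 1254, 1597, 1470.1, 1338 and 1257, and soleus 1279.5, 1653 and 1331. Only the highest psoas library, replicate 2, reached into the EDL range, and 2 of 3 soleus libraries lay below every EDL library. The difference of psoas from EDL was -0.46 ± 0.17 (0.728 times, interval -0.82 to -0.09), and its edgeR adjusted p of 0.0749 did not pass. Soleus differed from EDL by -0.41 ± 0.20 (interval -0.83 to 0.01, edgeR adjusted p = 0.351) and from psoas by 0.05 ± 0.20. Within label codes, psoas minus EDL was -0.47 in T4, -0.66 in T5 and -0.39 in T6.

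Gabarapl1, a GABARAP-family Atg8 gene known as a target of FoxO factors in muscle, had the largest spread within muscles of the 10 genes. Its normalized counts were 1309, 2352, 1083, 925 and 1457 in EDL, 1838, 1753, 1260.3, 908 and 983 in psoas, and 1419, 1762 and 1234 in soleus. The ranges of the 3 muscles covered each other almost fully. Psoas against EDL was -0.09 ± 0.28 (interval -0.67 to 0.50), soleus against EDL 0.05 ± 0.32 and soleus against psoas 0.13 ± 0.32, with edgeR adjusted p-values of 0.857 to 0.969. The residual SD of Gabarapl1 within muscles was 0.46 (log2), beside 0.21 for Map1lc3b. All 5 Atg8 genes of the list had log2 fold changes below 0 in psoas against EDL, from -0.60 for Gabarapl2 to -0.09 for Gabarapl1, with none past the limits. In that comparison 8319 of 17069 genes tested lay below 0. Of Gabarapl1 exon bases, 28.3% overlap 1700101I11Rik on the opposite strand, which had 2 to 20 counts.

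Sqstm1 encodes p62, which carries ubiquitinated cargo to the autophagosome. EDL replicates 1 to 5 had 7376, 10226, 8312, 5028 and 9482 normalized counts of Sqstm1. Psoas had 4640.1, 5665, 8788, 5874 and 4714, and soleus 8718, 8269.9 and 6152. Psoas replicate 3 lay well above the other psoas libraries and EDL replicate 4 well below the other EDL libraries, so the ranges overlapped. The difference of psoas from EDL was -0.45 ± 0.24 (interval -0.97 to 0.07, edgeR adjusted p = 0.214), and that of soleus from psoas 0.38 ± 0.28. Soleus and EDL were at -0.06 ± 0.28. Mrnip on the opposite strand (13 to 67 counts) overlaps 17.3% of the Sqstm1 exon bases.

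Nbr1 encodes a receptor that binds p62 and, with it, the titin kinase complex. Its normalized counts were 2092, 2536, 2467, 1579 and 2271 in EDL, 2200.1, 2343, 2790.0, 2271 and 2018 in psoas, and 2514, 2605 and 2263 in soleus. The libraries of all 3 muscles lay in 1 common range. Nbr1 differed by 0.08 ± 0.17 between psoas and EDL (interval -0.29 to 0.45), by 0.17 ± 0.20 between soleus and EDL and by 0.09 ± 0.20 between soleus and psoas. The ratio of Sqstm1 to Nbr1 normalized counts was 3.18 to 4.18 in EDL (mean 3.66 ± 0.43, SD), 2.11 to 3.15 in psoas (mean 2.52 ± 0.39) and 2.72 to 3.47 in soleus (mean 3.12 ± 0.38). This ratio did not overlap between EDL and psoas, but it was chosen after the values had been seen and was not tested. Other ratios formed in the same way overlapped between EDL and psoas. These were Bnip3 to Bnip3l, Map1lc3b to Map1lc3a, Gabarapl1 to Gabarap, Lamp2 to Lamp1 and Ctsl to Ctsb. How many ratios of other gene pairs do not overlap was not counted.

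Bnip3 encodes a receptor of the outer mitochondrial membrane that binds LC3 and is known to be induced by hypoxia. Soleus had 7709, 6815 and 7128 normalized counts of Bnip3. EDL had 3039.7, 4410.4, 5895, 2861 and 3924, and psoas 3646, 4031, 4139, 2014 and 2901. All 3 soleus libraries were above every library of the other muscles, with a smaller spread (CV 6.29%) than EDL (30.4%) or psoas (26.6%). The level in soleus was 1.79 times that in EDL (log2 fold change 0.84 ± 0.28, interval 0.25 to 1.44, unadjusted p = 0.00875 and adjusted p = 0.130 by edgeR). It was 2.17 times that in psoas (1.12 ± 0.28, interval 0.52 to 1.71, unadjusted p = 0.0012 and adjusted p = 0.101 by edgeR). Neither passed the adjusted limit, and psoas and EDL differed by -0.27 ± 0.25. In soleus against psoas the adjusted p was 0.0118 by DESeq2 and 0.0294 by edgeR with a block for the label code, and 0.386 by edgeR without soleus replicate 1.

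Within label codes, soleus exceeded psoas in Bnip3 by 0.86 (log2 CPM) in T4 and 1.56 in T6, and EDL by 0.70 and 1.10. Its paralogue Bnip3l, or Nix, also a mitochondrial receptor, differed less between soleus and EDL (0.36 ± 0.23) and between soleus and psoas (0.15 ± 0.23), and its libraries overlapped. The ratio of Bnip3 to Bnip3l normalized counts was 5.71 ± 1.73 (SD) in soleus, 3.85 ± 0.71 in EDL and 2.84 ± 0.97 in psoas. Of the distinct 75-base stretches in annotated Bnip3 transcripts, 43.5% also occur in other annotated genes. AC160336.1 held the most of these (461 of 983), followed by the antisense gene Gm45507, Gm16439 and Gm6532. A share of the Bnip3 reads may thus be ambiguous in all libraries. Markers of adipocytes were also highest in soleus, where their summed level over 6 genes was 3208 to 4886 CPM. It was 531 to 1614 in EDL and 840 to 2170 in psoas, with no gene at 0 in any library. Of the 6, 2 were called higher in soleus than in EDL and 0 in soleus against psoas. The median sum was 1375 CPM in psoas and 671 in EDL, 2 muscles that overlapped in Bnip3. EDL replicate 4 had the highest EDL sum (1614) and the lowest EDL count of Bnip3 (2861). Psoas replicate 4 had the lowest psoas sum (840) and also the lowest psoas count of Bnip3 (2014). Soleus replicate 2 was likewise lowest of soleus in both (3208 CPM and 6815 counts). The part of adipocytes in the Bnip3 values was not tested.

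Ctsl encodes cathepsin L, a lysosomal protease that is raised in many forms of muscle wasting. Its normalized counts were 4772, 5131, 4326, 4937 and 5766 in EDL, 5134, 6172, 4887, 4297 and 4097 in psoas, and 4661, 5040.5 and 4395 in soleus. The 3 muscles shared 1 range. Differences were -0.02 ± 0.17 for psoas against EDL (interval -0.38 to 0.34), -0.08 ± 0.20 for soleus against EDL (-0.50 to 0.34) and -0.06 ± 0.20 for soleus against psoas (-0.48 to 0.36). The intervals thus reached at most 0.50 in absolute log2 fold change. Cathepsin B (Ctsb), another lysosomal protease, differed by 1.01 ± 0.34 between psoas and EDL with an adjusted p of 0.0524 by edgeR, and cathepsin D (Ctsd) by 0.04 ± 0.18. Of Ctsl 75-base stretches, 29.8% occur in other annotated genes, most of them in the antisense gene Gm47123.

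Lamp2 encodes a lysosomal membrane protein that fusion of autophagosomes requires and whose loss causes Danon disease. EDL held 4156, 4406, 5328, 3653 and 2896 normalized counts of Lamp2, psoas 3158, 4408, 3998, 3011 and 3618, and soleus 4578, 4659.8 and 3255. The muscles overlapped, with differences of -0.17 ± 0.20 for psoas against EDL, 0.03 ± 0.24 for soleus against EDL and 0.20 ± 0.23 for soleus against psoas. Its counts sum the splice forms of the gene. Lamp1 differed between psoas and EDL by -0.37 ± 0.25 (edgeR adjusted p = 0.318).

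Tfeb encodes the transcription factor of the lysosomal and autophagy gene programme, and had the fewest counts of the 10 genes. Its normalized counts were 118, 211, 215, 110.0 and 129.8 in EDL, 73.1, 127, 135, 98.1 and 101 in psoas, and 114, 136 and 131 in soleus. EDL replicates 2 and 3 stood above the rest, and psoas replicate 1 was the lowest. Psoas differed from EDL by -0.55 ± 0.25 (0.681 times, interval -1.08 to -0.03, edgeR adjusted p = 0.130), soleus from EDL by -0.30 ± 0.29 and soleus from psoas by 0.26 ± 0.28. Tfe3, a relative that binds the same sites, differed the other way between psoas and EDL, by 0.97 ± 0.26, and passed an adjusted p of 0.05 (0.0195 by edgeR). The ratio of Tfeb to Tfe3 normalized counts was 1.86 to 5.05 in EDL, 0.662 to 1.81 in psoas and 1.74 to 2.38 in soleus, without overlap between EDL and psoas and again chosen after the values were seen. Mitf, the other relative measured, differed by -0.06 ± 0.22.

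Same-numbered EDL and psoas libraries deviated together from the means of their muscles, and are compared within numbers here. By its labels number 1 is not 1 animal, since it joins ages of 38 and 29 days and codes T1 and T3. A shared number thus does not show a shared animal. Psoas was lower than EDL in 5 of 5 numbers for Map1lc3b (-0.30 to -0.66 in log2 CPM), Tfeb (-0.14 to -0.75) and Becn1 (-0.0041 to -0.89). It was higher in 4 of 5 for Ulk1, with 1.14, -0.02, 0.92, 1.335 and 0.90 in numbers 1 to 5. For Sqstm1 the differences were -0.65, -0.88, 0.07, 0.25 and -1.01, and thus of either sign. Nbr1, Gabarapl1 and Ctsl also differed in sign between numbers, and Bnip3 and Lamp2 were lower in psoas in 4 of 5. How many of all genes kept 1 sign in 5 of 5 numbers was not counted. With the number as a block in the edgeR fit, 0 of 10 genes passed the study's limits, and the adjusted p of Ulk1 was 0.0150.

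**Figure D4:**
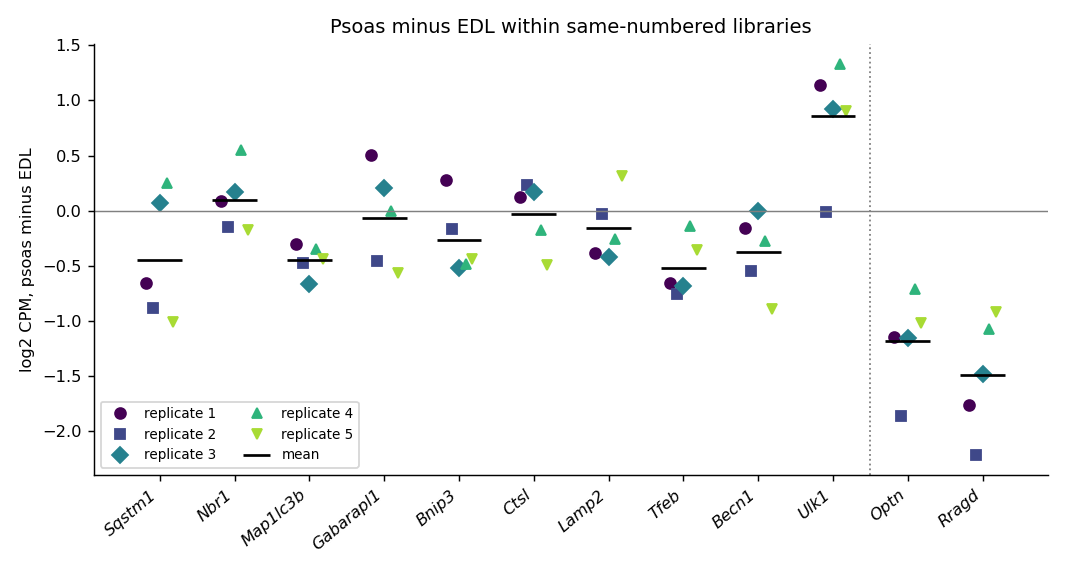
Log2 CPM of psoas minus that of EDL for same-numbered libraries, 1 symbol per replicate number and a line for the mean of 5, for the 10 genes and, right of the dotted line, Optn and Rragd. Map1lc3b, Tfeb, Becn1, Optn and Rragd lie below 0 in 5 of 5 numbers, and Ulk1 above 0 in 4 of 5. The same count over all genes was not made.

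The 10 genes were set beside a wider list of 143 autophagy and lysosome genes in 12 role groups, which includes them. Between psoas and EDL, 2 of 143 passed the study's limits, both lower in psoas, where 2.5% of all genes were called lower. Optn, the receptor optineurin that acts in removal of damaged mitochondria, had 1232, 1604, 1282, 789.6 and 1010.3 normalized counts in EDL and 552, 449.6, 578, 474 and 499.8 in psoas. It fell without overlap, by 1.22 ± 0.19 on the log2 scale (edgeR adjusted p = 0.00191), while soleus had 1120.2, 888 and 1018. Rragd, the RagD GTPase that recruits mTORC1 and TFEB to the lysosome, had 1983, 3299.7, 4298, 2122 and 2175 normalized counts in EDL, 576, 725, 1552, 988 and 1155 in psoas and 1412, 1153 and 906 in soleus. It fell by 1.48 ± 0.30 in psoas against EDL (edgeR adjusted p = 0.00585). The call of Rragd was lost without EDL replicate 2 or 3 or psoas replicate 1, 2 or 4 (adjusted p up to 0.0175). With the replicate number as a block, 6 of 143 passed, where 7.42% of all genes passed in that fit, namely Optn, Rragd, Retreg1 and Pink1 lower and Wdfy3 and Sgsh higher.

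At an adjusted p under 0.05, 23 of the 143 genes passed in psoas against EDL, 11 higher (9.06% of all genes passed in that direction) and 12 lower (9.06% of all genes). In the cargo receptor group of 8, Optn and Retreg1 were lower and Wdfy3 higher. Retreg1, a receptor for parts of the endoplasmic reticulum, was at -1.49 ± 0.35 (adjusted p = 0.0108 by edgeR). In the mitophagy group of 7, Pink1 (-1.28 ± 0.31, adjusted p = 0.014 by edgeR) and Fundc1 (-0.68 ± 0.21, adjusted p = 0.0358) were among the genes that were lower. PINK1 is a kinase that marks damaged mitochondria, and FUNDC1 is a mitochondrial receptor like BNIP3. Of the 5 genes of the initiation complex only Ulk1 passed, and of 16 genes for membrane growth and conjugation Atg4a and Atg4d were lower and Atg2a higher. Lysosomal hydrolases gave Lipa, Sgsh and Galns higher and Smpd1 lower of 29, while 0 of 11 cathepsins and 0 of 12 lysosomal membrane proteins passed. The V-ATPase, the pump that acidifies the lysosome, had 14 of 16 subunit genes below 0, of which Atp6v1d and Atp6v1g1 passed, and Atp6v0a1 passed above 0. Below 0 in this comparison were also 86 of the 143 genes and 8319 of 17069 genes tested. In the group of TFEB relatives and lysosomal mTORC1 signalling, Tfe3, Rptor and Fnip2 were higher and Rragd and Lamtor3 lower of 17.

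In soleus against EDL and in soleus against psoas 0 of 143 passed an adjusted p of 0.05 by edgeR, while 3.43% and 0.633% of all genes did. At an unadjusted p under 0.05 there were 13 (9.09%) and 12 (8.39%) of the 143, where 15.1% and 12.7% of all genes passed. The smallest adjusted p-values by edgeR were those of Galns (1.05 ± 0.29, adjusted p = 0.0670), Rragd (-1.26 ± 0.35, adjusted p = 0.0683) and Atg4d (-0.81 ± 0.24, adjusted p = 0.0883) for soleus against EDL. For soleus against psoas they were those of Optn (0.99 ± 0.22, adjusted p = 0.0575), Bnip3 and Vamp8 (0.63 ± 0.20, adjusted p = 0.206). The mitophagy genes were above 0 in 7 of 7 in soleus against psoas, with Bnip3 at the top. Above 0 in that comparison were also 86 of the 143 genes and 8095 of 17069 genes tested. The median log2 fold change of the 143 genes was -0.10, -0.04 and 0.07 in psoas against EDL, soleus against EDL and soleus against psoas.

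**Figure D5:**
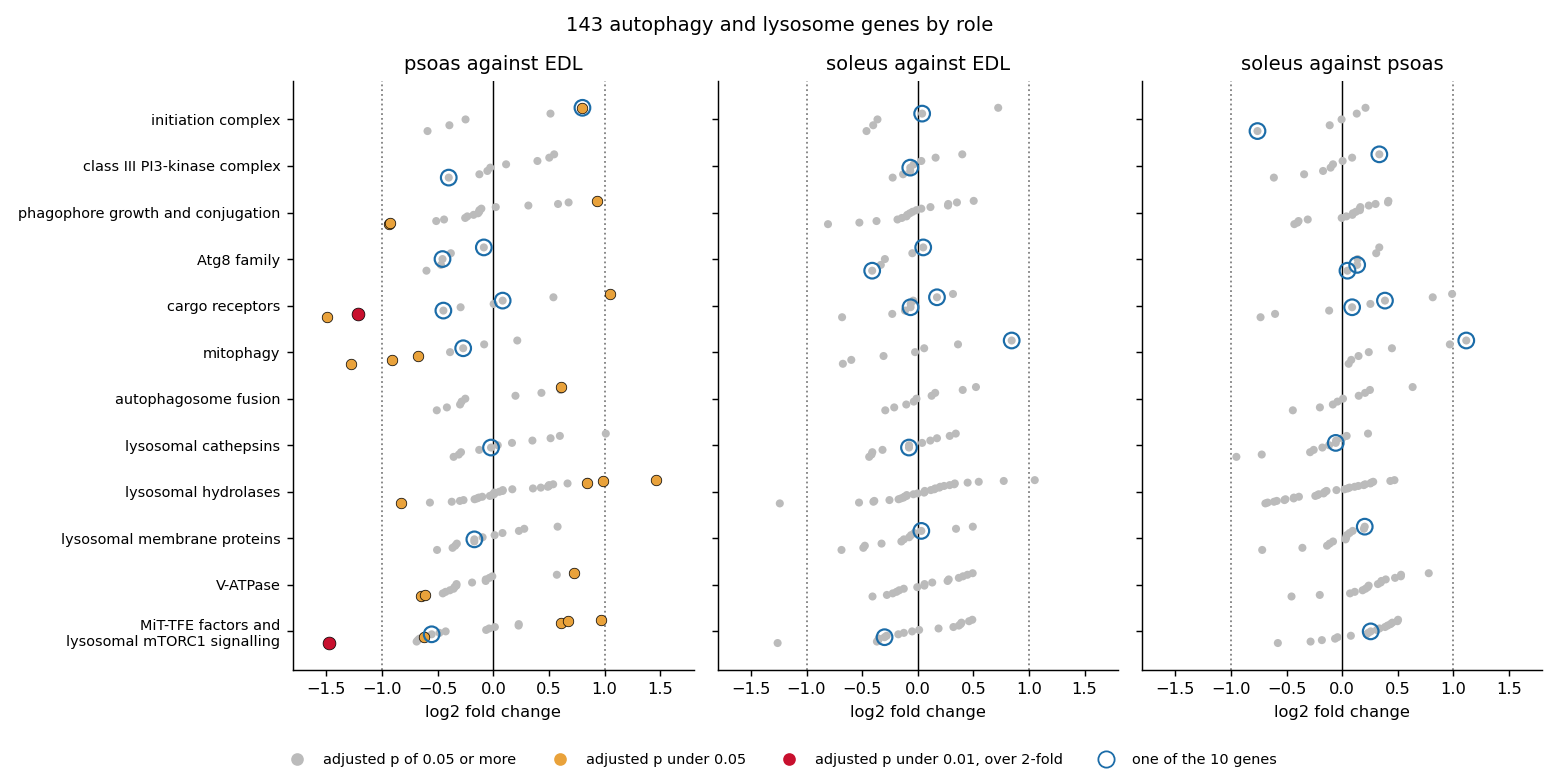
Log2 fold changes of 143 autophagy and lysosome genes in 12 role groups, 1 panel per comparison, coloured by the edgeR adjusted p, with the 10 genes ringed. Psoas against EDL holds 2 genes past the study's limits and 23 with an adjusted p under 0.05, and the panels with soleus hold none.

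The 10 genes differed in how much they varied within a muscle. The residual SD of log2 CPM after removing muscle means was 0.18 for Ctsl, 0.21 for Map1lc3b, 0.22 for Nbr1, 0.25 for Becn1, 0.29 for Lamp2, 0.37 for Ulk1, 0.38 for Sqstm1 and Tfeb, 0.39 for Bnip3 and 0.46 for Gabarapl1, where the median of all genes was 0.45. Ctsl stood at percentile 2.17 among 277 genes of like level, and Gabarapl1 at percentile 75.9 among 1171. Muscle accounted for a share of the variance (R2) of 0.63 in Bnip3, 0.62 in Ulk1 and 0.55 in Map1lc3b, and of 0.03 in Ctsl and Gabarapl1. From the lowest to the highest of 13 libraries, Ctsl spanned 1.51-fold, the least of the 10 genes, and Bnip3 3.83-fold, the most.

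Likeness of pattern was measured by Pearson's r of log2 CPM over the 13 libraries and is given as a description. These libraries share muscles and in part animals. The genes most like Sqstm1 were Klhl24 (r = 0.972) and Cdc5l (0.957). Those most like Ulk1 were Ubr4 (0.964), a ubiquitin ligase, and Atp6v0a1 (0.955), a V-ATPase subunit of the wider list. Bnip3 was most like Myoz2 (0.904), a Z-disc protein of slow fibres, and Gzf1 (0.900). Becn1 went with Klc4 (0.936) and Urgcp (0.930), Tfeb with Mad2l1bp (0.923) and Trappc8 (0.910), Map1lc3b with Aldh1a1 (0.920) and Stat5b (0.918), and Nbr1 with Dctn4 (0.907). Lamp2 had Plekhf2 (0.892) and E2f6 (0.889), Gabarapl1 had Fas (0.880) and B4galt4 (0.864), and Ctsl had Dnajc3 (0.824) and Trpc4 (0.766). Among the 10 genes themselves, r was above 0 in 38 of 45 pairs with a median of 0.31. The same count over pairs of all genes was not made, so this is no result about the 10 genes. The highest was that of Tfeb with Map1lc3b (0.86), followed by Tfeb with Sqstm1 (0.73) and Nbr1 with Sqstm1 (0.69), and the lowest that of Ulk1 with Becn1 (-0.49).

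Marker genes of other cells were measured beside these values. Skeletal muscle fibre markers (6 genes, led by Ttn) summed to 71261 to 124250 CPM in EDL, 47273 to 85604 in psoas and 45603 to 64216 in soleus. The labelled tissue was thus present in all libraries, with 2 of 6 called lower in psoas than in EDL. Ttn is the mutated gene, and the paper reports its RNA below wild type in mdm psoas and soleus, with no significant difference in EDL. The fibre sum is therefore not a measure of fibre content alone. Markers of regenerating fibres (5 genes, led by Myh3) summed to 2036 to 3924 CPM in EDL, 3841 to 8449 in psoas and 3476 to 10537 in soleus. Of these 5 genes, 1 was called higher in psoas than in EDL, while 1 was called lower in soleus than in EDL and 1 lower in soleus than in psoas. Macrophage markers, of cells rich in lysosomes, summed to 348 to 1123 CPM in EDL, 322 to 1310 in psoas and 402 to 703 in soleus over 12 genes, with 0 of 12 called in any comparison and none at 0. Mesothelial markers were called higher in psoas than in EDL for 5 of 5 genes, and summed to 12 to 59.7 CPM in psoas, 2.09 to 6.18 in EDL and 2.93 to 7.63 in soleus, with Upk3b, Wt1 and Bnc1 at 0 in at least 1 library. Fibroblast markers overlapped (2040.3 to 4965 CPM in EDL, 2636 to 7056 in psoas and 3326 to 4996 in soleus, 0 of 6 called), and endothelial markers summed to 77.1 to 218.7, 114 to 179 and 166 to 256 CPM, with 1 of 5 called higher in psoas and 1 in soleus, each against EDL. Between psoas and EDL, the median sums of fibre, regenerating and mesothelial markers differed along with Ulk1, Optn and Rragd. In soleus, fibre sums lay below all of EDL, regenerating sums reached above psoas, and mesothelial sums overlapped EDL. Soleus Ulk1 and Optn overlapped EDL, while soleus Rragd lay within the psoas range. The part of these cells in those values was not tested.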

How the data were processed

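The authors had prepared RNA of EDL, psoas and soleus of mdm mice with a stranded total RNA kit, sequenced paired 75-base reads, aligned them to GRCm38 by TopHat and counted reads per gene by GenomicAlignments. The submitters' processing notes name Trimmomatic 0.32 and TopHat2 2.1.1. How overlaps and strand were handled in counting is not given in the sources used here. The deposited counts are whole numbers for 17924 genes, left after the authors' filter on low values. The deposited normalized signal is the count divided by the authors' DESeq2 size factor, 0.502 to 2.42 per library, computed with libraries not used here.

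For the tests, counts went into 1 quasi-likelihood fit of edgeR 4.0.16 (R 4.3.3), with all 13 libraries, muscle as the only factor and TMM factors. The sequencing run, a term of the study's own model, has no label and was left out. The 17069 genes that reached a normalized count of 10 in 3 or more libraries entered the fit, with Benjamini-Hochberg adjustment over all of them. Calls needed an adjusted p under 0.01 together with a change of more than 1 on the log2 scale. The standard error was taken as the log2 fold change over the root of F, and 95% intervals use the fit's degrees of freedom. Log2 CPM have a prior count of 2. The members and lists were chosen with earlier results of these data known. Named were all 10 genes, wider-list genes that were called (at most 6 per direction, or the 3 with the smallest adjusted p), paralogues and partners, the 2 genes most like each of the 10, and genes at an adjusted p under 0.05, the last added after their values were seen.

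Alternatives were DESeq2 1.42.0, limma 3.58.1, RLE factors, no filter, blocks for label code or replicate number, 2 muscles alone, a limit of 0.05 and leaving out each library. Numbers were taken as pairs for EDL and psoas, where deviations of same-numbered libraries from the muscle means correlated by 0.41, 0.37, 0.32, 0.29 and 0.37, all above 0.1. In pair 1 the ages are 38 and 29 days. For soleus replicate 3 the correlations were -0.16 and -0.30, so soleus numbers were not taken as pairs. The block for replicate number was still fitted to the soleus comparisons, only as an alternative. No 2 libraries of a muscle were duplicates (23 pairs, smallest chi-square per degree of freedom 53.1). GENCODE mouse release 21 gave coordinates and exon lengths for 17833 genes. Some results of single genes are not reported here. The code was tested on simulated counts.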

Additional observations from a re-analysis of the deposited data

Results flagged for a closer look

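Ulk1 in EDL replicate 2 stood apart from the other EDL libraries. Its normalized count of 349.6 exceeded the other 4, which lay at 162 to 198, by a gap of 0.812 of the whole range, above Dixon's 95% critical value of 0.710 for 5 libraries. The 10 genes gave 20 groups of 5 libraries to screen, and chance flags about 1 in 20. That library has the label code T4, and the psoas library of the same code and number had 354. Without it the log2 fold change of Ulk1 between psoas and EDL was 1.06 in place of 0.80 (edgeR adjusted p = 0.00534 in place of 0.0289).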

How the results depend on the processing

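Of the 30 fold changes of the 10 genes, 225 values under the 8 alternatives other than leaving out 1 library kept direction and side of the limit, and 15 turned direction, each with an absolute value under 0.3. In psoas against EDL, Lamp2 was 0.0092 when only codes T4 and T6 were used with the code as a block, an alternative chosen after seeing the data. In soleus against EDL, the code block gave Gabarapl1 -0.21, Lamp2 -0.017 and Ulk1 -0.18, codes T4 and T6 gave Gabarapl1 -0.28 and Ulk1 -0.20, and the replicate block gave Becn1 0.071, Gabarapl1 -0.13, Lamp2 -0.094 and Ulk1 -0.078. In soleus against psoas, the code block gave Map1lc3b -0.020, codes T4 and T6 gave Map1lc3b -0.050, and the replicate block gave Nbr1 -0.0077, Map1lc3b -0.030 and Gabarapl1 -0.066. The cause was not tested. The replicate-block values of the soleus comparisons rest on numbers that were not taken as pairs.

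The 10 genes called in psoas against EDL numbered 0, 1 (Ulk1) at an adjusted p under 0.05 with any fold change, and 0 to 1 when 1 library was left out. Wider-list genes called in psoas against EDL numbered 2, but 6 by DESeq2, 8 with the code block, 6 with the replicate block, 1 with the 2 muscles alone, 0 with codes T4 and T6 alone, 23 at an adjusted p under 0.05 with any fold change, and 1 to 5 when 1 library was left out (1 without EDL replicate 3 or psoas replicate 1, 2 or 4, 4 without EDL replicate 4 and 5 without EDL replicate 2). In soleus against EDL they numbered 0, but 1 (Rragd) by DESeq2 and 1 (Gaa) with the code block. The replicate block changed no other call at the study's limits. In psoas against EDL, 4.93% of all genes were called in the main fit and 7.42% with the replicate block. Shares of all genes called in the other fits are not given here, so these counts are no result about the list.

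Leaving out 1 library at a time turned 23 of the 390 fold changes of the 10 genes, in these ranges. In psoas against EDL, Nbr1 ran from -0.018 to 0.15, Gabarapl1 from -0.22 to 0.18 and Ctsl from -0.11 to 0.040. In soleus against EDL, Sqstm1 ran from -0.20 to 0.079, Gabarapl1 from -0.10 to 0.32, Lamp2 from -0.070 to 0.19, Becn1 from -0.16 to 0.10 and Ulk1 from -0.25 to 0.30. In soleus against psoas, Map1lc3b ran from -0.084 to 0.12, Gabarapl1 from -0.028 to 0.27 and Ctsl from -0.12 to 0.032. With the smallest library at 9114176 counts, Tfeb had 76 counts there at the least, which limits its precision.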
